A study of Mus musculus with 6 samples.

Results

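The genes described here mark the intermediate mesoderm and the nephric lineage of the mouse embryo: Pax2, Pax8, Wt1, Osr1, Gata3, Emx2, Ret and Gfra1. They were chosen by name, and a probe set, the group of array probes that reads 1 transcript, was taken where the array annotation gave it exactly 1 of these 8 symbols. This found 7 probe sets for 6 of the 8 genes (2 for Gfra1, 1 for each of the others), out of 22626 probe sets and 12393 named genes tested. No probe set of the annotation carried the symbol Pax2 or Emx2, so these genes have no value here.

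The intermediate mesoderm lies between the somites and the lateral plate and gives rise to the nephric duct, the successive kidneys and part of the gonads. Osr1 encodes a zinc finger factor and is among the earliest genes of this territory, where it is shared with the lateral plate. The paired box factors Pax2 and Pax8 act together to specify the nephric lineage, and in the duct Gata3 acts downstream of them and is needed for the expression of Ret. Ret encodes the receptor tyrosine kinase for the ligand GDNF, and Gfra1 encodes the co-receptor that binds GDNF with it. Wt1 encodes a zinc finger factor of the coelomic epithelium and of the nephrogenic mesenchyme, and Emx2 a homeobox factor of the urogenital epithelium. Several of these genes are active elsewhere at this stage as well, among them Pax8 at the midbrain-hindbrain boundary and in the otic placode, and Ret in neural crest.

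The embryos were of the C57BL/6 strain at 9.5 days post coitum and were either wild-type or homozygous for the Dll3 allele tm1Rbe, also written Dll3neo, a targeted allele of a Notch pathway ligand gene needed for regular somite formation. The tissue reached from the otic placode to the youngest somite (in mutants, to the matching level), without heart and endoderm, so that any intermediate mesoderm was part of a mixture with somites, neural tube, surface ectoderm and lateral plate. RNA from 3 wild-type and 3 mutant pools of embryos was hybridised to 6 Affymetrix MOE430A arrays, 1 per pool, and the series design calls the pools biological replicates. The presomitic mesoderm and tail bud were cut away. Deposited values are linear ratios, each relative to a reference of its own probe set, which for all 7 probe sets here was the median of the 6 pools. A ratio holds no signal level, so the values show neither whether a gene was above background nor which gene was more abundant, and the defining markers of the tissue could not be checked for their presence. In pooled tissue, fewer cells of a type and less RNA per cell cannot be told apart.

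Mutant and wild-type pools were compared to ask whether genes of the nephric lineage, which forms beside the somites, differ where Dll3 is disrupted. None of the 7 probe sets and none of the 6 genes passed the threshold, an adjusted p under 0.05 in limma over all probe sets or all genes. The background was the same: 0% of all probe sets and 0% of all genes passed, though 1 gene did in each of 4 of the 15 alternatives (Uncx in 3 and Xist in 1). An unadjusted p under 0.05 was found for 2.63% of all probe sets and 2.67% of all genes, and for none of the probe sets or genes of this group. Of the 6 genes, 5 had a positive and 1 a negative log2 difference (mutant minus wild-type), with a median of 0.05 that became -0.04 with array weights. Over all 12393 genes, 6427 differences were positive and 5966 negative, with a median of 0.003.

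Osr1 had the widest spread of the group. Its ratio was 0.864, 1.127 and 0.91 in wild-type pools 1, 2 and 3 and 1.09, 0.728 and 1.219 in mutant pools 1, 2 and 3. The mutant pools held both the highest and the lowest value, and the wild-type pools lay between them. Wild-type pools averaged 0.967 ± 0.140 (SD, n = 3), and mutant pools averaged 1.01 ± 0.255 (SD, n = 3). On the log2 scale they differed by 0.04 (SE 0.173, 95% interval -0.34 to 0.42). This interval runs from 0.791-fold to 1.34-fold, the widest among the 7 probe sets. The sign of the difference changed when wild-type pool 1 (-0.03), mutant pool 1 (-0.03) or mutant pool 3 (-0.11) was left out, and with array weights (-0.15).

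Pax8 was highest in mutant pool 1. Its ratio was 1.034, 1.108 and 0.947 in wild-type pools 1 to 3 and 1.18, 0.966 and 0.955 in mutant pools 1 to 3. The other mutant pools lay within the wild-type range. Wild-type pools averaged 1.03 ± 0.0806 (SD, n = 3), mutant pools averaged 1.03 ± 0.127 (SD, n = 3), and they differed on the log2 scale by 0.002 (SE 0.107, 95% interval -0.23 to 0.24). Without mutant pool 1 the difference was -0.10, and without wild-type pool 3 it was -0.06.

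Mutant pool 1 also held the highest ratios of several genes of head and placode tissue. Otx2, a homeobox gene of forebrain and midbrain, was at 2.208 in this pool and at 0.907 to 1.044 in the other 5. Dlx5, a homeobox gene of the otic placode and branchial arches, was at 1.681 there and at 0.781 to 1.021 elsewhere. Lhx2, a LIM homeobox gene of forebrain, eye and limb bud, was at 2.248 there and at 0.781 to 1.159 elsewhere. En2, a homeobox gene of the midbrain-hindbrain boundary that was named after its values were seen, was at 1.41 there and at 0.951 to 1.082 elsewhere. None of these 4 genes passed the threshold between the genotypes. Lhx2 stands in the list of lateral plate markers, and the other 3 in the list of otic and hindbrain markers, of which 5 of 16 measured genes were highest in mutant pool 1, beside 17.9% of all genes. Hmx3 and Dlx6 of that list were highest in this pool too, at log2 ratios of 0.32 and 0.13. The other genes of the list were not highest there. On the log2 scale mutant pool 1 was at -0.34 for the hindbrain gene Hoxb1, its lowest pool, at -0.28 for the neural progenitor gene Sox2 and at -0.12 for Gbx2, a hindbrain-side gene of the midbrain-hindbrain boundary, while En1, of the same boundary, was at -0.30 there and at -0.39 to -0.27 in the other pools. Without Otx2, Dlx5 and En2 the mean log2 ratio of the remaining 13 genes was -0.08 in mutant pool 1 and -0.07 to -0.01 in the other 5. Hoxb1 was the first of the list by p, and Hmx3, Dlx6, Sox2, Gbx2 and En1 were named after their values were seen. In other lists, described below, the share of genes highest in mutant pool 1 also varied. It was 27% for the 37 further nephric genes (10 genes), 25% for heart markers and 5.56% for somite markers. The part of this pool's tissue makeup in the Pax8 values was not tested.

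**Figure D1:**
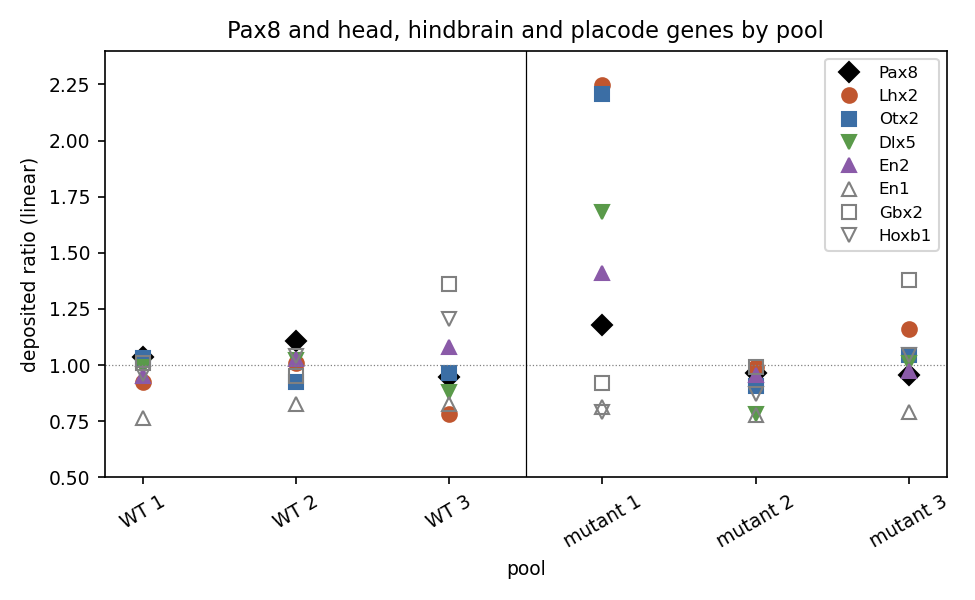
Deposited linear ratio (y axis) of Pax8, of 4 genes that are highest in mutant pool 1 (filled) and of 3 other genes of the otic and hindbrain list (open), in each of the 6 pools (x axis), 1 point per gene and pool. In mutant pool 1 Pax8 is at 1.18 and Lhx2 at 2.248, while Hoxb1 has its lowest value there.

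Gata3 did not separate the genotypes. Wild-type pools 1 to 3 had ratios of 1.076, 0.924 and 0.951, and mutant pools 1 to 3 had ratios of 1.042, 0.958 and 1.061. All mutant values fell inside the wild-type range. The difference on the log2 scale was 0.05 (SE 0.0934, 95% interval -0.15 to 0.26), from means of 0.984 ± 0.0811 (SD, n = 3) and 1.02 ± 0.0548 (SD, n = 3).

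Wt1 was read by 1 probe set, whose name ends in _s_at, the array maker's mark for probes that can match more than 1 transcript. It gave ratios of 0.992, 0.873 and 1.113 in wild-type pools 1 to 3 and of 1.008, 1.207 and 0.948 in mutant pools 1 to 3. Wild-type pools averaged 0.993 ± 0.120 (SD, n = 3), and mutant pools averaged 1.05 ± 0.136 (SD, n = 3). The groups overlapped, with mutant pool 2 the highest and wild-type pool 2 the lowest. The log2 difference of 0.09 (SE 0.118, 95% interval -0.17 to 0.35) was the largest of the group in size. It was -0.003 without wild-type pool 2 and -0.02 without mutant pool 2.

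The GDNF receptor genes Ret and Gfra1 had the smallest spread of the group as gene values. Ret stood at ratios of 0.989, 1.068 and 1.03 in wild-type pools 1 to 3, and at 1.004, 0.946 and 0.996 in mutant pools 1 to 3. It was the only gene of the group with a negative log2 difference, -0.07 (SE 0.0835, 95% interval -0.25 to 0.12), which turned positive with a covariate for the sex mix of the pools (0.02), and its groups overlapped. Wild-type pools averaged 1.03 ± 0.0395 (SD, n = 3), and mutant pools averaged 0.982 ± 0.0314 (SD, n = 3).

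Both probe sets of Gfra1 gave a positive difference. The first (1421973_at) had ratios of 1.01, 0.93 and 0.99 in wild-type and 1.01, 1.134 and 0.916 in mutant pools. Its groups overlapped, and mutant pool 3 was the lowest of all. The second (1450440_at) had ratios of 0.999, 0.925 and 0.961 in wild-type and 1.026, 1.016 and 1.001 in mutant pools. It was the only probe set of the 7 whose groups did not overlap, beside 7.46% of all probe sets and 7.46% of all genes, and wild-type pool 1 and mutant pool 3 were 0.999 and 1.001. Its log2 difference was 0.08 (SE 0.0821, 95% interval -0.10 to 0.26), against 0.06 (SE 0.0984) for the first. A two-sided exact permutation test of the second gave p = 0.1, the smallest that 3 against 3 pools allow. The mean over both probe sets had a log2 difference of 0.07 (SE 0.0773), and its groups overlapped.

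**Figure D2:**
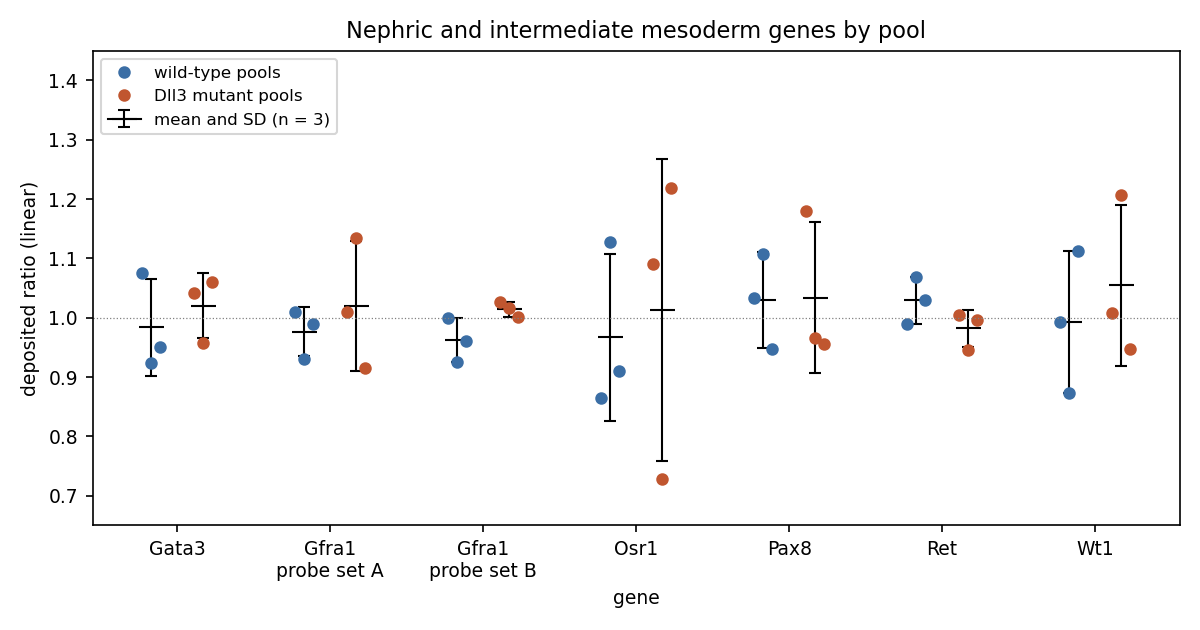
Deposited linear ratio (y axis) of the 7 probe sets (x axis; Gfra1 A is 1421973_at and B is 1450440_at), with wild-type pools in blue, mutant pools in orange, and bars for the mean and SD of 3 pools. The groups overlap in all but Gfra1 B, and the mutant pools of Osr1 reach from 0.728 to 1.219.

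In the fit of genotype alone, the intervals bound what these arrays could have missed. They take no account of the sex mix of the pools or of the replicate number. The lowest fold inside any of the 7 intervals was 0.791 and the highest was 1.34, both for Osr1. For Ret the interval ran from 0.84-fold to 1.08-fold, for the first Gfra1 probe set from 0.896-fold to 1.21-fold, for the second from 0.931-fold to 1.20-fold, for Gata3 from 0.901-fold to 1.20-fold, for Pax8 from 0.85-fold to 1.18-fold and for Wt1 from 0.886-fold to 1.27-fold. These are folds of the deposited ratios, and for a probe set near background they would not carry over to the transcript. For scale, Uncx, a homeobox gene of the caudal somite, had a log2 difference of -0.998 (SE 0.127) in the same fit over probe sets. It too missed the threshold there (limma adjusted p = 0.182) and in the fit over genes (adjusted p = 0.116). Uncx passed over genes with the replicate block, a variance trend or array weights, and over probe sets with the replicate block or array weights. Dll3 itself was at -0.02 (SE 0.0837) by its 1 probe set. Where that probe set lies in the targeted gene is not stated in the sources, so it does not check the labels.

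**Figure D3:**
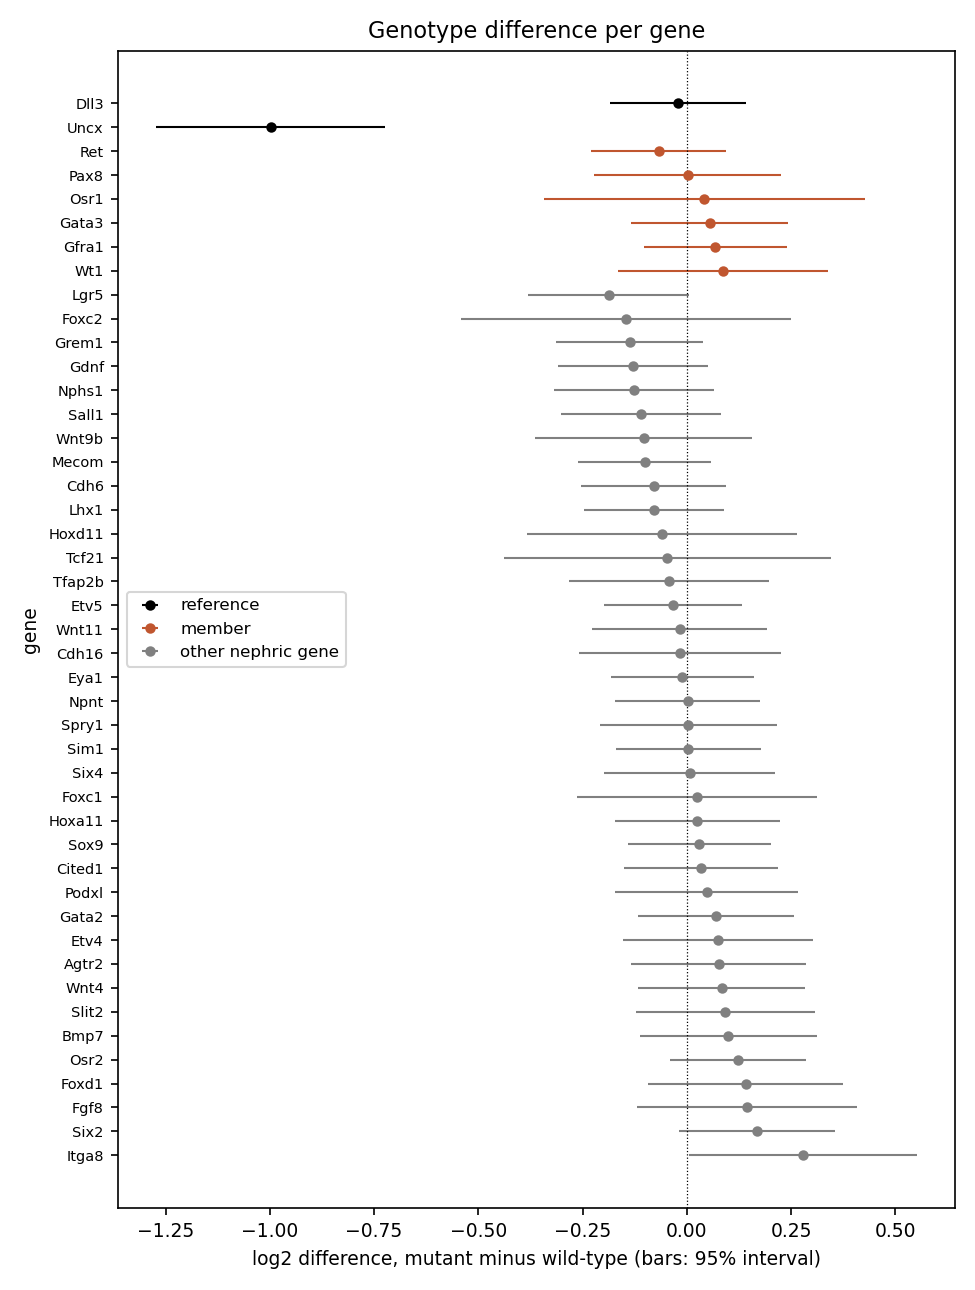
Log2 difference, mutant minus wild-type (x axis), with its 95% interval from the fit over genes for each gene (y axis), with Dll3 and Uncx in black, the 6 nephric genes in orange and 37 further genes of the lineage in grey. The intervals of the 6 genes all hold 0, while that of Uncx, at -0.998, does not.

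The spread between pools of the same genotype differed widely among the 6 genes. The within-genotype SD of the log2 ratio was 0.312 for Osr1, which lay at percentile 99.5 of all 12393 genes. Wt1 followed with 0.178 (percentile 87.6) and Pax8 with 0.146 (percentile 75.1). Gata3 stood at 0.0995 (percentile 45.2), Gfra1 at 0.0713 (percentile 22.8) and Ret at 0.0512 (percentile 9.37). The median over all genes was 0.106. For Osr1 the difference between genotypes, 0.04, was far smaller than this spread.

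**Figure D4:**
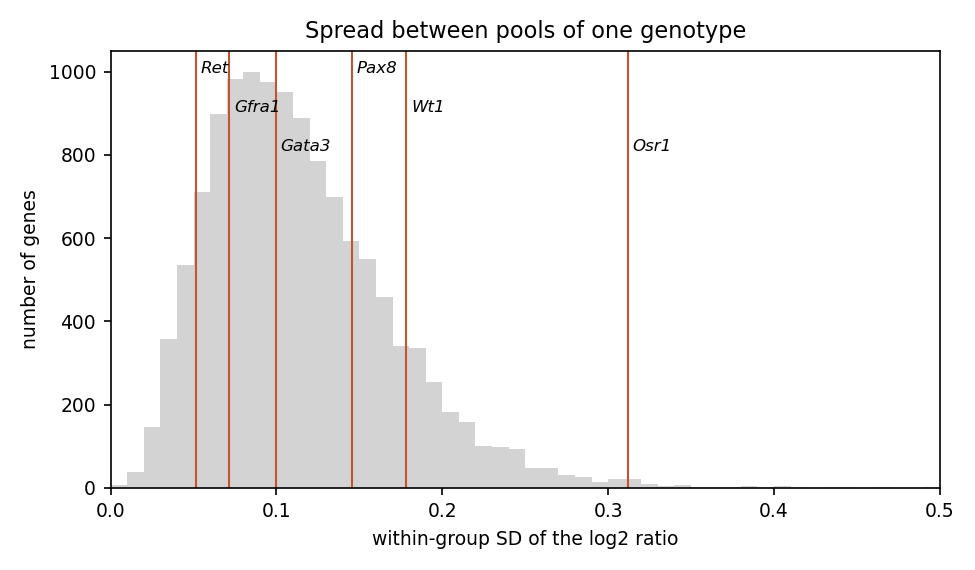
Number of genes (y axis) by the within-genotype SD of the log2 ratio (x axis, cut at 0.5, beyond which 2 genes lie), with a line for each of the 6 nephric genes. Osr1 lies in the upper tail at 0.312, and Ret, at 0.0512, below most genes.

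Osr1 and Wt1 tended to opposite sides over the 6 pools. On the log2 scale Osr1 was lowest in mutant pool 2 (-0.46), where Wt1 was highest (0.27), and Wt1 was lowest in wild-type pool 2 (-0.20), where Osr1 was at 0.17. Pearson's r over the 6 pools was -0.82 (exact permutation p = 0.0444, adjusted 0.222 over the 15 pairs of the 6 genes) and Spearman's rho was -0.77 (exact permutation p = 0.103, adjusted 0.51). Within the genotypes, after the group means were taken away, r was -0.89, and without wild-type pool 2 and mutant pool 2, the farthest from the median of Wt1, it was -0.60. Within-genotype r was of like size in other pairs, among them Osr1 and Gfra1 (-0.94), Osr1 and Ret (0.87), Ret and Gfra1 (-0.84) and Wt1 and Gfra1 (0.82). The opposition of Osr1 and Wt1 did not pass after adjustment.

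Ret and Gfra1, the 2 parts of the GDNF receptor, also ran opposite to each other, at r = -0.88 (exact permutation p = 0.0278, adjusted 0.222) and rho = -0.71 (exact permutation p = 0.136, adjusted 0.51). This relation rests on wild-type pool 2 and mutant pool 2, without which r was -0.22. Wt1 and Gfra1 were alike in the same way, at r = 0.82 (exact permutation p = 0.0431, adjusted 0.222) and rho = 0.83 (exact permutation p = 0.0583, adjusted 0.51), with r = 0.07 without these pools. None of the other 12 pairs had an r with an unadjusted exact permutation p under 0.05, and none of the 15 passed after adjustment.

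**Figure D5:**
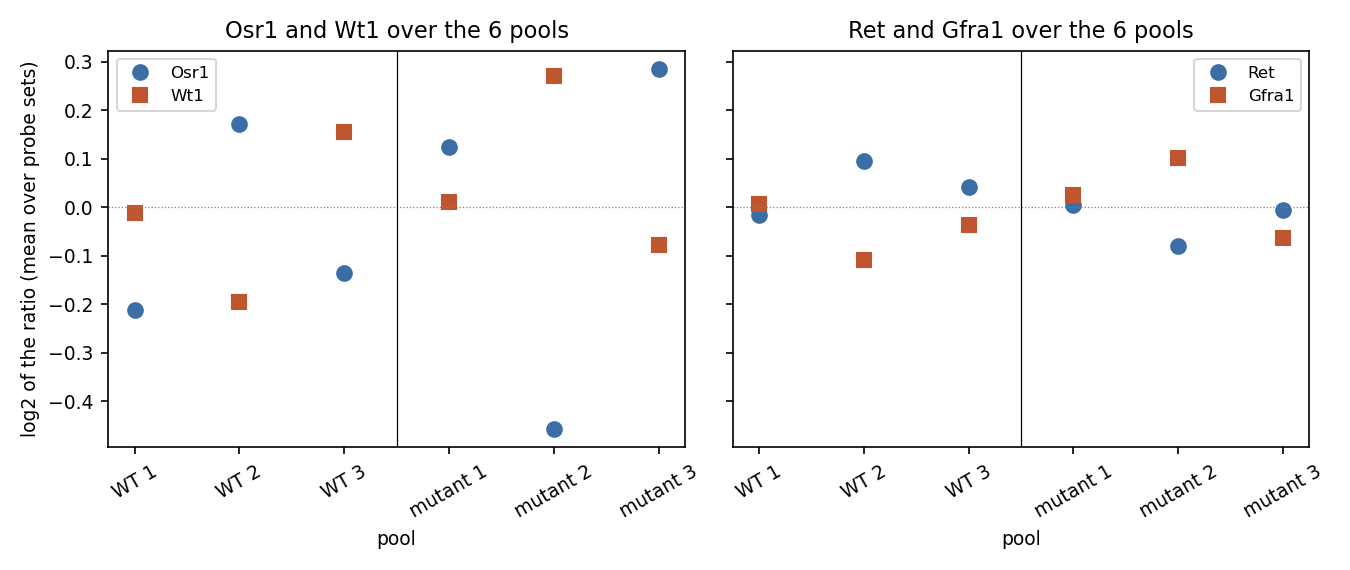
Log2 of the ratio, averaged over the probe sets of a gene (y axis), in each of the 6 pools (x axis), for Osr1 and Wt1 on the left and Ret and Gfra1 on the right. In mutant pool 2 Osr1 is at -0.46 and Wt1 at 0.27.

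The genes most like each member over the 6 pools were found by Pearson's r among genes whose SD over the pools reached the median of all genes, as a description over 6 points. Osr1 was most like Mesp1, a basic helix-loop-helix gene of early mesoderm (r = 0.995). Mesp1 had ratios of 0.949, 1.053 and 0.961 in wild-type pools 1 to 3, and of 1.039, 0.875 and 1.068 in mutant pools 1 to 3, low in the same pools as Osr1, over a narrower range. The next for Osr1 was Scn10a (0.957). Pax8 was most like Akr1c18 (0.992) and Cldn15 (0.990), Wt1 most like Ndel1 (0.974) and Efemp1 (0.967), and Gata3 most like Dnajb7 (0.995) and Atxn7l1 (0.983). Ret was most like Ebi3 (0.990) and Smg8 (0.972), and Gfra1 most like Mt2 (0.968) and Dach2 (0.965). An r above 0.9 was reached by 187 genes for Pax8, against 17 to 30 genes for each of the other 5. A gene chosen for its likeness to Pax8 tends by that choice to be highest in mutant pool 1, as 154 of these 187 were, beside 17.9% of all genes.

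Further genes of the lineage came from a list of 46, of which 37 were measured. None passed the threshold, 20 had a positive and 17 a negative difference, and the median was 0.004. The duct gene Lhx1, a LIM homeobox factor of the early intermediate mesoderm that was named after its values were seen, was at -0.08 (SE 0.0752). The GDNF ligand gene Gdnf was at -0.13 (SE 0.0807), with log2 ratios of 0.02 to 0.09 in the wild-type pools and -0.21 to -0.02 in the mutant pools, which did not overlap. The groups of Osr2, a relative of Osr1, and of Mecom, a zinc finger factor gene that was named after its values were seen, did not overlap either. These 3 of 37 genes stand beside 7.46% of all genes.

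Itga8, the integrin subunit of the nephrogenic mesenchyme, was the only one of the 37 with an unadjusted limma p under 0.05 (0.0468, adjusted p = 0.9997), at 0.28 (SE 0.123). Its highest log2 ratio was 0.40 in mutant pool 3 and its lowest -0.23 in wild-type pool 2, and the groups overlapped. The other genes of smallest p with a positive difference were Six2, a homeobox gene of nephron progenitors, at 0.17 (SE 0.0838), Osr2 at 0.12 (SE 0.0734) and Foxd1, a forkhead gene of the kidney stroma, at 0.14 (SE 0.105). With a negative difference, beside Gdnf, these were Lgr5, a receptor of R-spondin ligands, at -0.19 (SE 0.0869), the BMP antagonist gene Grem1 at -0.14 (SE 0.0797) and the podocyte gene Nphs1 at -0.13 (SE 0.0865).

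Markers of the other tissues in which these genes are active were followed beside them. Of 19 measured genes of coelomic epithelium and lateral plate, 10 had a positive and 9 a negative difference (median 0.02). The mean log2 ratio of this list ran from -0.05 to 0.05 in the wild-type and from -0.001 to 0.04 in the mutant pools, and apart from Lhx2 it was led by Tbx4 (-0.31, SE 0.124) and Isl1 (0.10, SE 0.0909). Neural crest and autonomic markers had 12 of 16 positive differences (median 0.03), with list means of -0.06 to 0.03 in wild-type and -0.02 to 0.06 in mutant pools. Crabp1 led them at 0.22 (SE 0.0939), with Fabp7 at 0.27 (SE 0.158) and Foxd3 at -0.14 (SE 0.0911). Spinal cord neuron markers had 10 of 18 positive differences (median 0.02), with list means of -0.09 to 0.04 in wild-type and -0.06 to 0.07 in mutant pools. The 3 genes of smallest limma p were all negative: Mnx1 at -0.33 (SE 0.122), Isl2 at -0.16 (SE 0.0771) and Lhx3 at -0.12 (SE 0.0799). The groups did not overlap for 4 of these 18 genes, beside 7.46% of all genes and 0 to 2 genes in each other marker list. Otic and hindbrain markers had 7 of 16 positive differences (median -0.003), with Hoxb1 at -0.25 (SE 0.118).

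Somite markers had 6 of 18 positive differences (median -0.04), with Uncx, Myog at 0.30 (SE 0.08) and Dmrt2 at -0.23 (SE 0.109) in front. Of the tissues that were dissected away, endoderm markers had 7 positive and 8 negative differences among 15 (median -0.02). The list means were -0.16 to 0.16 in wild-type and -0.06 to 0.09 in mutant pools. The 3 genes of smallest limma p were all positive: Foxa1 at 0.37 (SE 0.19), Cdh1 at 0.41 (SE 0.234) and Krt8 at 0.14 (SE 0.0901). Heart markers had 8 of 12 positive differences (median 0.03), with list means of -0.09 to -0.007 in wild-type and -0.01 to 0.01 in mutant pools, and Tnnt2 at 0.29 (SE 0.0999), Nppb at -0.20 (SE 0.078) and Actc1 at 0.38 (SE 0.152). From which tissue in the pools the transcripts of the endoderm and heart lists came was not tested. No gene of these 7 lists passed the threshold, and their part in the nephric values was not tested.

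The pools differed in their sex-linked transcripts along with genotype. Xist, transcribed from the inactive X chromosome, had log2 ratios of -0.04, -1.23 and -1.26 in wild-type pools 1 to 3 and of 0.12, 0.77 and 0.49 in mutant pools 1 to 3, and the mean of the Y-linked genes Eif2s3y, Kdm5d and Uty was 0.05, 0.25 and 0.47 against 0.08, -0.04 and -0.23. With the sex score, Xist minus this mean, as a covariate, Osr1 moved from 0.04 to 0.32, the largest value of any of the 6 genes under the alternatives, Pax8 from 0.002 to 0.09, and Gfra1 from 0.07 to 0.005. The differences of Gata3 (-0.09) and Ret (0.02) changed sign, Wt1 was at 0.07, and none of the 6 passed.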

How the data were processed

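The deposited table holds a linear ratio for each of 22690 probe sets in each of 6 pools: 93.4% of rows have a median of 1 (within 0.0015), 1497 a lower and 0 a higher one. Per the submitters' processing notes the tools were RMA and MAS5 (no version or role stated), and the array scaling is not stated in the sources used here. The number of arrays limits the precision (median SE 0.0988 over probe sets). After removal of 64 control probe sets, log2 of the ratio, with no pseudocount, was fitted with limma 3.58.1 in R 4.3.3 (genotype only, no trend, Benjamini-Hochberg over all rows, two-sided). The value of a gene was the mean of its probe sets. The annotation gave 1 symbol to 20380 probe sets, more than 1 to 691 and no symbol to 1555, and 20351 matched RefSeq (GRCm38.p6) by gene ID.

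Members, lists and tests were chosen with earlier results of these data known. The genes named are all members, the 4 higher and 4 lower further nephric genes of smallest p, up to 3 genes per marker list, 2 genes of like pattern per member, Dll3, Uncx and the sex-linked genes, with exceptions marked where they occur. In 20 simulated sets with 200 changed probe sets among 22626, the mutant against wild-type fit recovered 78.2% of log2 changes of 0.5, 99.9% of 1 and 100% of 2, with 7.19% false calls. The simulated noise was normal and independent between probe sets and pools, which the data need not be. The 200 changed probe sets of each simulated set also ease the Benjamini-Hochberg threshold. In the main fit of the data 0 probe sets passed, and Uncx, at a log2 difference of -0.998, missed the threshold. These rates therefore do not carry over to the nephric genes. Alternatives were a replicate block, a variance trend, array weights, quantile normalization, median centring, rows of low median or _x_at and _s_at probe sets left out, the sex score, for a gene its most variable probe set, and each pool left out. Figures were drawn with matplotlib 3.10.9.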

Additional observations from a re-analysis of the deposited data

How the results depend on the processing

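All alternatives were planned. The number of nephric genes and of further nephric genes past the threshold was 0 under each of 15, and that of nephric probe sets under each of the 14 that apply to probe sets, also with the replicate number as a block (replicate block, 0). Deviations of same-numbered pools from their group means correlated at 0.37, -0.02 and 0.37 over all probe sets. Those of wild-type and mutant pools with different numbers correlated at -0.43 to 0.20. Whether the numbers pair the pools was not tested. Over all genes the block gave 617 genes at an unadjusted p under 0.05 against 331 without it, array weights 1200, the sex score 156, and pools left out 174 to 683. Over all genes 1 gene passed with the block, the trend and array weights (Uncx in each) and without wild-type replicate 1 (Xist). Over all probe sets 1 passed with the block and array weights (Uncx in each) and without wild-type replicate 1 (Xist). Signs changed with array weights for Pax8 (-0.091) and Osr1 (-0.147), with quantile normalization (-0.0227) and median centring (-0.00272) for Pax8, and with the sex score for Gata3 (-0.0863) and Ret (0.0223). With pools left out the log2 difference ran from -0.0974 to 0.056 for Pax8, -0.109 to 0.263 for Osr1 and -0.0151 to 0.172 for Wt1. Gfra1 kept its sign in all 15, at 0.005 to 0.11, the lowest with the sex score. Wt1 has no value without _s_at probe sets. The cause of these changes was not tested. A filter on dim probe sets was not run, since ratios hold no signal over background.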
